A study of Mus musculus with 2 samples.

Results

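The genes described here encode 10 secreted cytokines or cytokine subunits: Il6, Il10, the interleukin 12 family subunits Il12a, Il12b, Il23a, Il27 and Ebi3, and the colony-stimulating factors Csf1, Csf2 and Csf3. They were chosen by symbol, and each matched 1 of the 55536 annotated genes. Their RNA was measured in the nucleoplasm of bone-marrow-derived macrophages (BMDM) from C57BL/6J mice. BMDM are macrophages grown in culture from bone marrow, and the cells had been stimulated with lipid A, the part of bacterial lipopolysaccharide that the receptor TLR4 recognises, at 100 ng/ml for 20 min. Both libraries belong to this 1 group, carry the same donor identifier, and have no sex or age recorded in the labels. Whether they came from different cultures or animals is not labelled, so n = 2 counts libraries and the spread between them may be technical. The library of replicate 1 was made with 1 µg RNA and that of replicate 2 with 500 ng, and input and replicate cannot be told apart. No unstimulated library was analysed here, so levels are described and no response to lipid A was tested.

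Cytokines of these families carry signals between immune cells and, Csf1 apart, bind receptors that work through JAK kinases and STAT factors. Interleukin 6 signals through its own receptor chain and the shared chain gp130 (Il6st), and interleukin 10 restrains inflammatory gene expression in macrophages. The interleukin 12 family is built by pairing subunits: Il12a with Il12b gives interleukin 12, Il23a with Il12b gives interleukin 23, Il27 with Ebi3 gives interleukin 27, and Il12a with Ebi3 gives interleukin 35. Csf1 supports the survival and growth of macrophages, Csf2 acts on granulocytes and macrophages, and Csf3 drives the formation of neutrophils. In stimulated macrophages many of these genes are induced through factors such as NF-kB, AP-1 and C/EBP. Nucleoplasmic RNA includes transcripts that have not reached the cytoplasm, and some of these still hold introns.

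Il10, Csf1 and Ebi3 were each present at over 10 TPM, and the other members were near or below 1. TPM, transcripts per 1000000, is a level scaled for gene length and library size. Of the 10 members, 3 reached 1 TPM in both libraries, 6 were below it in both, and Il27 lay on either side. The same minimum was met in both libraries by 44.9% of 22015 nuclear-encoded protein-coding genes. The median TPM of the members was 0.76 in replicate 1 and 0.695 in replicate 2, and that of the protein-coding genes was 0.59 and 0.48. All members together held 120.1 TPM in replicate 1 and 85.6 TPM in replicate 2, and Il10, Csf1 and Ebi3 carried 96.5% and 96.8% of these sums. In such bulk RNA, fewer cells of a type and less RNA per cell cannot be told apart.

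Expected counts over genes summed to 18194818 and 18667509 in replicate 1 and replicate 2, so a count of 0 allows up to 3 counts, or 0.165 and 0.161 CPM (counts scaled to 1000000). All 10 macrophage markers were at 1 TPM or more in both libraries, with summed levels of 3774 and 3447 TPM. Among the marker lists of other cell types, 0 of 8 neutrophil, 0 of 6 B cell, 0 of 8 stromal and endothelial, 1 of 6 dendritic cell, 1 of 6 mast cell and 1 of 8 T and NK cell genes met that minimum. By the second quantification the numbers were 0 neutrophil, 0 B cell, 2 stromal and endothelial (Pecam1 and Lepr), 2 dendritic cell (Zbtb46 and Siglech), 0 mast cell and 2 T and NK cell genes (Cd4 and Cd8a). Pecam1 stood there at 3.22 and 7.67 TPM, and Lepr, with 0 counts in the first table, at 2.35 and 10.2 TPM. Cd4, which some macrophages also express, was the T cell exception of the first table at 33.7 and 32.5 TPM, while Cd3e and Cd3g had 0 counts in both libraries there. Across 15557 genes, TPM in replicate 2 stood at a median log2 of -0.36 relative to replicate 1, against 0.0034 after TMM scaling of the counts. TPM thus carries a shift between the libraries, and differences between replicates are given below on the scaled counts. A second deposited quantification of the same libraries had a median log2 ratio to the first of -0.95 in replicate 1 and -0.038 in replicate 2, so its TPM is set beside the first with this shift in view.

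**Figure D1:**
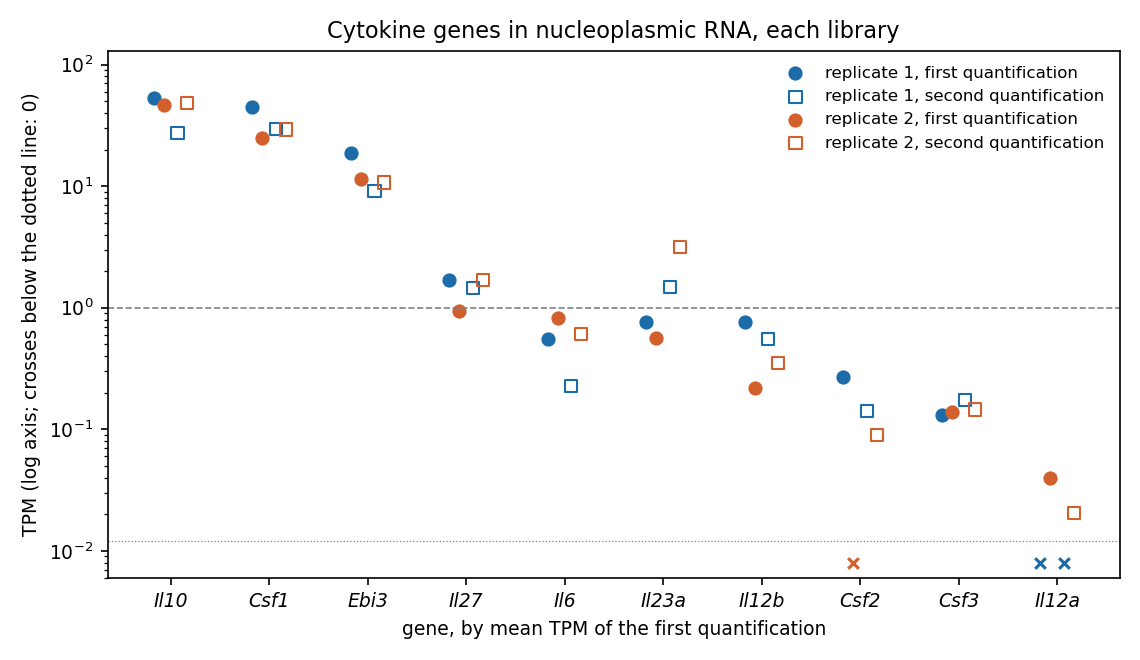
TPM of each cytokine gene on a log axis in replicate 1 (blue) and replicate 2 (orange), from the first (filled circles) and second (open squares) quantification. Il10, Csf1 and Ebi3 stand above 9 TPM in every table, and Csf2, Csf3 and Il12a stay below 0.3 TPM; the dashed line is 1 TPM.

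Csf1 is described first with the sequences that separate its transcripts, because its annotated forms differ in whether the growth factor is secreted or held at the cell surface. The gene lies on chromosome 3 (107741048 to 107760469, mm10, minus strand) and has 7 annotated transcripts. Exon 6 is used whole in Csf1-201 (107748154 to 107749169) and shortened by 885 bases in Csf1-202 (107748154 to 107748284), and as background the long exon encodes the secreted forms and the shortened one the membrane-bound form. The lines below give the join of exon 5 (lower case) to exon 6 (capitals) in both, and the end of exon 6 (lower case) running into unspliced intron (capitals) in Csf1-206, from the GENCODE M21 transcripts.
Csf1-201, exon 5 to long exon 6: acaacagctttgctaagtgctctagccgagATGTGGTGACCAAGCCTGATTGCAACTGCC
Csf1-202, exon 5 to short exon 6: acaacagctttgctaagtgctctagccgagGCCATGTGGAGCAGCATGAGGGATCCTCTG
Csf1-206, exon 6 into intron, chr3:107748124-107748183: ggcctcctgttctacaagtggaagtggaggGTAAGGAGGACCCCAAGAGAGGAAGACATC

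Csf1 had 2387 expected counts in replicate 1 and 1853 in replicate 2. Its level was 44.5 and 24.7 TPM, a mean of 34.6 ± 14 TPM (SD, n = 2), and it ranked 1574 among the protein-coding genes. The second quantification gave 29.6 and 29.3 TPM, on a TPM scale that carries the shift between the libraries given above, from 3338 and 2831 estimated counts. On scaled counts Csf1 was lower in replicate 2 in both tables, by log2 ratios of -0.31 (-0.39 to -0.22) in the first and -0.49 (-0.57 to -0.42) in the second. Transcripts with the long exon 6, Csf1-206 among them, took 72.2% and 76.9% of the first quantification's Csf1 TPM. Those with the short one took 21.6% and 20.7%. In both libraries the secreted-type exon was thus the more abundant by that table. The second quantification gave 42.6% and 55% to the long exon and 34.9% and 29.6% to the short one, so the order was the same and the gap smaller. In replicate 1 of that quantification the order rested on Csf1-206, which has 0 annotated coding bases and took 13.8%. The coding forms with the long exon, Csf1-201 at 15.7%, Csf1-203 at 13.1% and Csf1-207 at 0%, were together below the short class there. Csf1-205, an annotated fragment without exon 6, held 6.18% and 2.47% in the first quantification and 22.5% and 15.3% in the second.

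The intron-containing Csf1-206, whose last 421 bases lie beyond the splice site at the end of exon 6, had 333 expected counts in replicate 1 and 92.6 in replicate 2. Its share of Csf1 TPM was 20.2% and 8.24%, and 13.8% and 7.27% in the second quantification. The intron-containing form thus held the larger share in replicate 1 in both tables.

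Il10 was the most abundant member by the mean over both libraries. It lies on chromosome 1 (131019845 to 131024974, mm10, plus strand) and has a single annotated transcript. It had 1103 and 1204 expected counts and levels of 52.7 and 46.7 TPM, a mean of 49.7 ± 4.21 TPM (SD, n = 2), which ranked 988. The second quantification gave 27.3 and 48.0 TPM. The log2 ratio between those tables was -0.95 in replicate 1 and 0.038 in replicate 2, close to the median gene in each library.

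Ebi3, the beta-type subunit that pairs with Il27 or Il12a, lies on chromosome 17 (55952640 to 55957022, mm10, plus strand). It had 337 and 253 expected counts and levels of 18.7 and 11.4 TPM, a mean of 15.1 ± 5.18 TPM (SD, n = 2). Its partner Il27 on chromosome 7 (126589010 to 126594941, mm10, minus strand) had 26 and 18 expected counts and levels of 1.68 and 0.94 TPM. The mean TPM of Ebi3 was 11.5 times that of Il27, the widest step between neighbours among the 7 most abundant members. The second quantification put Ebi3 at 9.07 and 10.7 TPM and Il27 at 1.45 and 1.68 TPM.

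Both genes overlap an annotated neighbour on the opposite strand. The antisense gene Gm16712 shares 2252 bases of span with Ebi3 and stood at 19.9 and 13.5 TPM, close to Ebi3 itself. Apobr shares 103 bases with Il27 and stood at 34.3 and 31.7 TPM. No source used here states whether counting used strand, so reads within the shared stretches may not be told apart. For Il27 that stretch is 103 bases, beside a transcript of 1021 bases. The overlaps were measured on gene spans, and whether exons overlap was not examined. How far they touch the levels of Ebi3 and Il27 is therefore uncertain.

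Il6 lies on chromosome 5 (30013114 to 30019981, mm10, plus strand) and was scarce. It had 17 expected counts in replicate 1 and 39 in replicate 2, with levels of 0.55 and 0.83 TPM. Most of these counts fell on Il6-203, an annotated transcript that keeps the 1226-base last intron (30018155 to 30019380), and not on the fully spliced Il6-201. The sequence shows where Il6-203 runs on from exon 4 (lower case) into the kept intron (capitals), which opens with the splice donor bases GT.
Il6-203, exon 4 into last intron, chr5:30018115-30018184: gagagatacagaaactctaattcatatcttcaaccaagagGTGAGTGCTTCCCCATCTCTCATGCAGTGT

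Il6-203 had 12.9 expected counts in replicate 1 and 37.2 in replicate 2. Il6-201 had 4.06 and 1.76. The intron-containing form therefore took 76.1% and 95.5% of Il6 counts, and 58.2% and 90.3% of Il6 TPM, where its greater length weighs less. By the second quantification its share of TPM was 52.4% and 85.8%, and Il6-201 was at 2.21 counts in replicate 1 and 0 in replicate 2. Il6-204, which does not keep that intron, took 30.6% and 14.2% of TPM there, on 3.20 and 2.99 counts. It had 0 counts in the first quantification. In each library both tables put more than 50% of Il6 TPM on the form with the intron. In replicate 1 that share rests on 17 expected counts in the first table and 21 estimated counts in the second, and is uncertain. A count assigned to a transcript is an estimate, and no count of reads over the splice junction itself was used here.

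Il23a, the subunit particular to interleukin 23, lies on chromosome 10 (128296139 to 128298752, mm10, minus strand). It had 19 and 15 expected counts, 0.76 and 0.56 TPM. Its levels depended on the quantification: the second gave 136 and 213 estimated counts, 1.49 and 3.17 TPM. After centring on the median gene, the second value was higher than the first by log2 1.92 in replicate 1 and 2.54 in replicate 2. Of 5 members that could be compared in both libraries, Il23a was the only one past 2-fold in both. Among 17439 genes, 28.7% were past 2-fold higher in the second table in both libraries and 0.751% past 2-fold lower, so 1 of 5 is not apart from genes at large.

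The added counts of Il23a sat on Il23a-202, an annotated transcript that keeps the 219-base first intron and starts 668 bases upstream of the coding transcript Il23a-201. The first quantification gave Il23a-202 10.1 counts in replicate 1 and 0 in replicate 2, and the second gave 128 and 198. For Il23a-201 the tables were close, at 8.9 and 15 counts in the first and 8.66 and 15.8 in the second. The spliced coding transcript was therefore low by both tables, and the disagreement lay in the intron-containing one. Its kept intron is shown in capitals between 20 bases of exon on each side.
Il23a-202, first intron, chr10:128297572-128297830: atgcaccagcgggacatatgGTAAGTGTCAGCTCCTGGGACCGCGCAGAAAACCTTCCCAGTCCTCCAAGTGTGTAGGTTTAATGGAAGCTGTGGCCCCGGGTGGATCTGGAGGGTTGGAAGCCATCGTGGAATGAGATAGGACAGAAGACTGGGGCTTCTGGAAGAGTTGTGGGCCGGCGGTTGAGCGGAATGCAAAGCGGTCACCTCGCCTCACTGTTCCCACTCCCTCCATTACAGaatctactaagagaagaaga

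Il12b, the subunit shared by interleukins 12 and 23, lies on chromosome 11 (44400063 to 44414033, mm10, plus strand). It had 24 expected counts in replicate 1 and 9 in replicate 2, 0.76 and 0.22 TPM. The second quantification had 57.6 and 27 counts, 0.549 and 0.354 TPM. Replicate 1 was the higher in both tables. Its annotated transcripts Il12b-201 and Il12b-202 both have 1005 coding bases, and the first quantification placed 100% of Il12b TPM on Il12b-201 in replicate 1 and 94.7% on Il12b-202 in replicate 2. The second split them at 42.6% and 57.4% in replicate 1 and 61.6% and 38.4% in replicate 2. At these counts the share of either transcript was not determined.

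Il12a, the partner of Il12b in interleukin 12, had no count in replicate 1 and a single one in replicate 2, by either quantification. It lies on chromosome 3 (68690644 to 68698547, mm10, plus strand). Csf2, on chromosome 11 (54247271 to 54249667, mm10, minus strand), had 3 and 0 expected counts, and 5.09 and 2.47 in the second table. The antisense gene Gm12223, which overlaps Csf2 by 2068 bases, had 0 counts in both libraries in the first table. Csf3, on chromosome 11 (98701263 to 98703629, mm10, plus strand), had 3 and 4 expected counts, 0.13 and 0.14 TPM, and 13 and 8 counts in the second table. In the first quantification the counts of these 3 genes are at or near the limit that a count of 0 allows, and no ratio between the libraries was read from them.

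In the order of mean TPM of the first quantification, Il10 stood above Csf1, Csf1 above Ebi3, Ebi3 above Il27 and Il27 above Il6, with both values of the upper gene above both values of the lower in every step. The next neighbours overlapped: Il6 with Il23a, Il23a with Il12b, Il12b with Csf2, and Csf2 with Csf3. Csf3 stood above Il12a in both libraries, at 0.13 and 0.14 TPM against 0 and 0.04 TPM. By the second, Il23a had a higher mean than Il27, at 2.33 against 1.56 TPM, and Csf1 stood above Il10 in replicate 1. Taking the subunits as pairs in the first quantification, the scarcer subunit of interleukin 27 was Il27, at 1.31 ± 0.523 TPM (SD, n = 2). For interleukin 23, Il12b at 0.49 ± 0.382 TPM (SD, n = 2) and Il23a at 0.66 ± 0.141 TPM (SD, n = 2) overlapped. The scarcer subunit of interleukins 12 and 35 was Il12a, at 0.02 ± 0.0283 TPM (SD, n = 2). These are RNA levels, and no protein was measured.

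**Figure D2:**
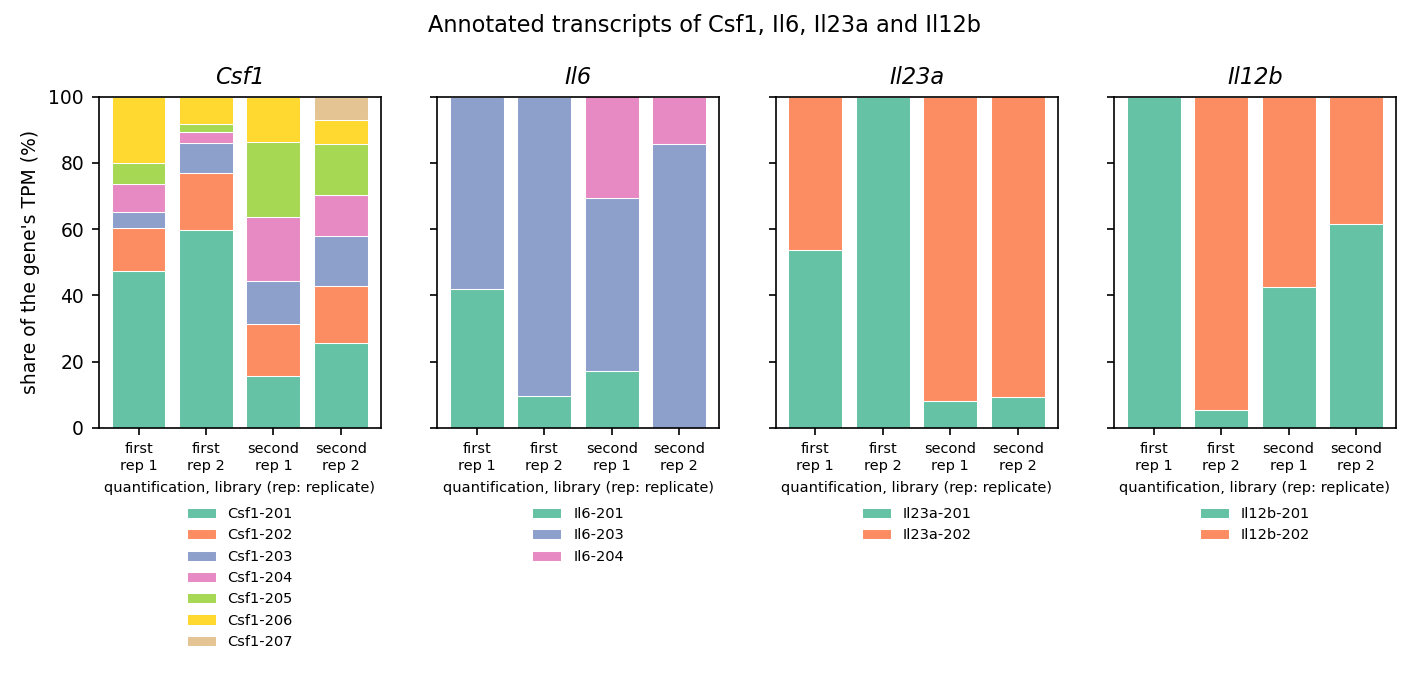
Share of the gene's TPM (%) on each annotated transcript of Csf1, Il6, Il23a and Il12b, in both quantifications and both libraries. Il6-203, which keeps an intron, takes over 50% of Il6 in all 4 columns, while Il23a-202 takes 46.3% and 0% in the first quantification and 91.8% and 90.6% in the second.

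The scaled counts were then compared between the libraries, with exact binomial 95% intervals that cover counting error only. Of 7 members whose mean scaled count reached 10, Il6 was over 2-fold higher in replicate 2 and Il12b over 2-fold lower. Past the same fold, 4.83% of 15557 genes were higher in replicate 2 and 3.98% lower. The log2 ratio of replicate 2 over replicate 1 was 1.23 for Il6 (0.40 to 2.17) and -1.31 for Il12b (-2.65 to -0.20), and the second quantification gave 1.06 and -1.34. By the ratio of TPM, Il6 was at 0.59, within 2-fold, and Il12b at -1.79. Both rest on 39 counts or fewer a library in the first table, and both intervals reach below 2-fold.

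The abundant members differed less. Ebi3 was lower in replicate 2 by a log2 ratio of -0.35 (-0.60 to -0.12), beyond counting error, as was Csf1 by the values above. Il10 was higher in replicate 2 by 0.19 (0.07 to 0.31) on scaled counts but lower by -0.17 on the TPM scale, so its direction depends on the scaling. The intervals of Il27, at -0.46 (-1.42 to 0.45), and Il23a, at -0.27 (-1.36 to 0.77), included 0, and for Il23a the second quantification had the opposite sign at 0.39. The summed level of the 8 neutrophil markers was 3.59 TPM in replicate 1 and 5.12 TPM in replicate 2. Of these, 2 had a mean scaled count of at least 10, and both were higher in replicate 2, as Il6 was: Ngp by a log2 ratio of 1.90 (1.04 to 2.95) on 13 and 48 counts, and Ltf by 0.98 (0.26 to 1.77) on 24 and 46. The neutrophil markers with fewer counts went both ways. S100a9 had 9 and 6 counts, S100a8 3 and 2, and Camp 1 and 0, while Mpo had 1 and 10 and Elane 0 and 1. The defining marker Ly6g had 0 counts in both libraries. The 6 dendritic cell markers summed to 3.58 and 3.25 TPM, and 5 had enough counts to compare. Among them Clec9a was lower in replicate 2, as Il12b was, at -1.08 (-1.89 to -0.34), while Zbtb46 was higher at 0.58 (0.22 to 0.96). Ccr7 stood at 1.02 (-0.10 to 2.32), Flt3 at 0.30 (-0.73 to 1.36) and Siglech at 0.00066 (-0.87 to 0.87). Xcr1, below the count minimum, had 3 and 11 counts, the direction opposite to Clec9a. The part of these markers in the differences between libraries, and that of the RNA input, was not tested.

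**Figure D3:**
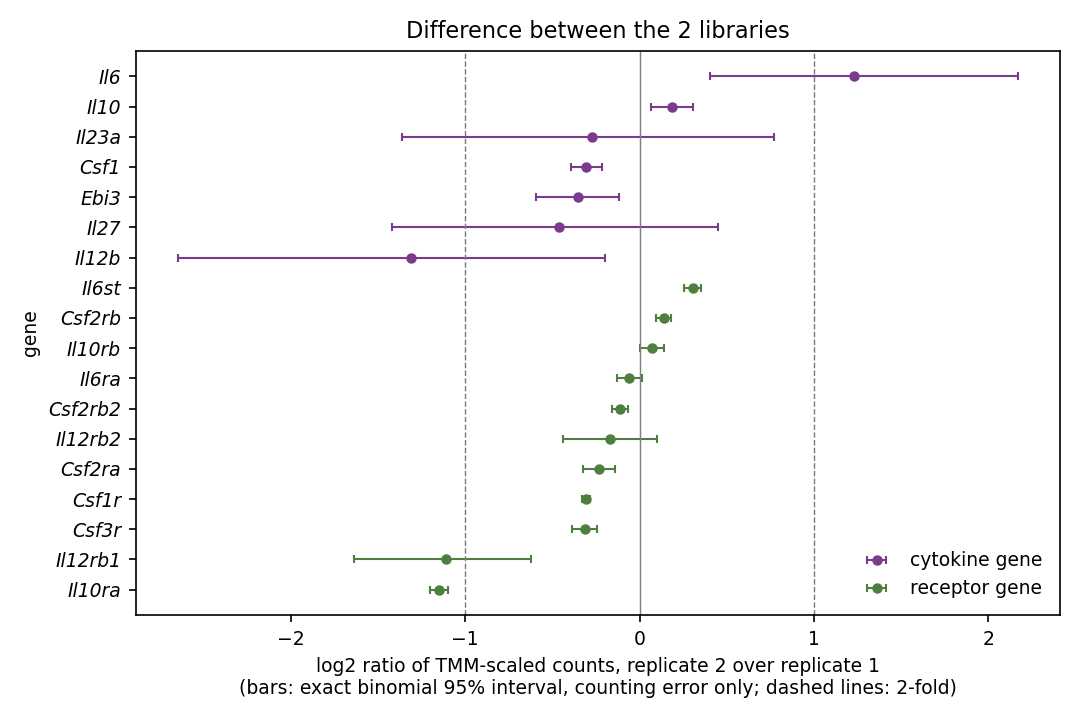
Log2 ratio of TMM-scaled counts, replicate 2 over replicate 1, with exact binomial 95% intervals for 7 cytokine genes (purple) and 11 receptor genes (green) at a mean scaled count of 10 or more. Il6 at 1.23 and Il12b at -1.31 lie past the dashed 2-fold lines but have wide intervals, and Il10ra at -1.15 lies past them with a narrow one.

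The promoters were searched for the motifs of factors known to act on these genes. RefSeq (GRCm38.p6, the mm10 assembly) gave a start site for 6 of the 10 members, and 4 of these windows are shown: Il6 and Ebi3, with a match close to the start, Csf1, with a match farther upstream, and Il12b, with none. Each line is the 250 bases before the start, on the gene's strand, with motif matches in capitals.
Il6, chr5:30012864-30013113, plus strand: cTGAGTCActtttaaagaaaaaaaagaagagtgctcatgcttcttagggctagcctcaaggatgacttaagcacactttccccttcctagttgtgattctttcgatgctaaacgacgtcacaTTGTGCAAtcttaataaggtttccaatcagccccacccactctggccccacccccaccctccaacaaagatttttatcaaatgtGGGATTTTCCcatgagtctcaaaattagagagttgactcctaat
Ebi3, chr17:55952373-55952622, plus strand: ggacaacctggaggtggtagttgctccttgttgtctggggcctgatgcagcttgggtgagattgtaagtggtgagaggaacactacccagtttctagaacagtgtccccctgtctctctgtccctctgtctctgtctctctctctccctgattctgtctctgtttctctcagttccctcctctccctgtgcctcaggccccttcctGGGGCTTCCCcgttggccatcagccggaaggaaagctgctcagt
Csf1, chr3:107760470-107760719, minus strand: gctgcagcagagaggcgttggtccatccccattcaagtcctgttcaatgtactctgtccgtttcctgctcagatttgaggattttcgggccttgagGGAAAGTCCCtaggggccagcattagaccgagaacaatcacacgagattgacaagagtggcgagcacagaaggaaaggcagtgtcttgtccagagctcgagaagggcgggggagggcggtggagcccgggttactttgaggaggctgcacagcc
Il12b, chr11:44399813-44400062, plus strand: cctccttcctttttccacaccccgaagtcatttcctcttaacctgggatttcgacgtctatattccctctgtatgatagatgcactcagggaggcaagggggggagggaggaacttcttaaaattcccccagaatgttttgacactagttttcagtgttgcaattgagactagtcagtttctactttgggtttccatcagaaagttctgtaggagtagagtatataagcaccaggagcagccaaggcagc

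The motifs were the 10-base NF-kB motif, AP-1 (TGANTCA), C/EBP (TTGNGCAA) and STAT (TTCNNNGAA) on both strands, and the TATA box (TATAAA) on the gene's strand. Il6 held an NF-kB match whose first base lies at -44 from the start, an AP-1 match at -249 and a C/EBP match at -128. Ebi3 held an NF-kB match at -44 that reads on both strands, and Csf1 held one at -154 on the opposite strand. Among 32851 RefSeq promoter windows of the same length, 7.25% held the NF-kB motif, 6.75% AP-1, 2.61% C/EBP, 7.02% STAT and 7.59% the TATA box. Csf2 held a C/EBP match at -145 from its RefSeq start. Its window, not printed here, covers 54249900 to 54250149 and lies upstream of the GENCODE start at 54249667. The bases between were not searched. The windows of Il12a and Il12b held none of these letters, which says nothing of the factors themselves. Il6, at under 1 TPM, and Ebi3 and Csf1, at over 10 TPM, thus all carried the NF-kB letters.

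Receptors for these cytokines were more abundant than most of the cytokines. Of 13 receptor genes, 11 reached 1 TPM in both libraries, with medians of 80.8 and 53.2 TPM. Csf1r, the receptor for Csf1 and a macrophage marker, was at 487 and 534 TPM and ranked 29. The receptor chains for Csf2 were also abundant. Csf2rb, the common beta chain, was at 130.2 and 130 TPM, and the specific chain Csf2ra at 113 and 56.9 TPM. Csf2rb2, a mouse paralog of Csf2rb that is in the receptor list but is not a Csf2 chain, was at 98.5 and 72.7 TPM. Because Csf2rb and Csf2rb2 are near-identical copies, the split of reads between them is uncertain. Csf3r, the receptor for Csf3, was at 80.8 and 61.0 TPM. The receptors of Csf2 and Csf3 were thus well above 1 TPM in both libraries while their ligands were below it.

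For interleukin 10, the specific chain Il10ra was at 151 and 53.2 TPM and the shared chain Il10rb at 106 and 82.9 TPM. For interleukin 6, Il6st was at 47.6 and 47.6 TPM and the specific chain Il6ra at 24.5 and 20.7 TPM. Apart from the shared chain Il6st, the chains that bind the interleukin 12 family were lower. Il12rb1 was at 3.07 and 1.02 TPM, Il12rb2 at 4.73 and 3.37 TPM, Il27ra at 0.59 and 0.09 TPM, and Il23r at 0.07 and 0 TPM with 3 and 0 counts. Between the libraries, 11 receptors had enough counts to compare, of which 2 were past 2-fold lower in replicate 2 and 0 past 2-fold higher, against 3.98% and 4.83% of all genes compared. These were Il10ra, at a log2 ratio of -1.15 (-1.20 to -1.10), and Il12rb1, at -1.11 (-1.64 to -0.62). The second quantification gave -1.11 for Il10ra and -0.39 for Il12rb1, so the latter was within 2-fold there. Il10 itself differed by 0.19 on the same scale of scaled counts.

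Among 15 JAK, STAT and SOCS genes, which relay and restrain the signals of these receptors other than Csf1r, 12 reached 1 TPM in both libraries. Stat2 (116 and 74.1 TPM) and Stat6 (87.9 and 64.8 TPM) were among the most abundant, and Socs1, a feedback inhibitor, was the lowest at 0.54 and 0.28 TPM. Of 15 related cytokine genes, 4 reached 1 TPM in both libraries and 6 had 0 counts in both. Osm, which also signals through gp130, led them at 42.1 and 44.3 TPM, near the level of Il10 and Csf1. Flt3l, at 9.12 and 7.69 TPM, and Kitl, at 4.03 and 1.82 TPM, followed. Il3, Il19, Il20, Il22, Il24 and Ctf1 were the genes with 0 counts.

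Factors that regulate transcription or decay of these cytokine mRNAs were abundant, with 15 of 16 reaching 1 TPM in each library and medians of 46.3 and 23.4 TPM. Irf1, an interferon-regulatory factor, was at 823 and 181 TPM. Zfp36, which binds and destabilises cytokine mRNAs, was at 491 and 402 TPM. Nfkbiz, a nuclear cofactor of NF-kB that acts on Il6 and Il12b, was at 387 and 123 TPM. The lowest was Cebpd, at 0.96 and 1.4 TPM. Of these 16 genes, 3 were over 2-fold lower in replicate 2, against 3.98% of all genes compared, among them Irf1 at a log2 ratio of -1.85 (-1.89 to -1.81) and Nfkbiz at -1.28 (-1.31 to -1.24). In the same libraries the log2 ratio was 1.23 for Il6 and -1.31 for Il12b.

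**Figure D4:**
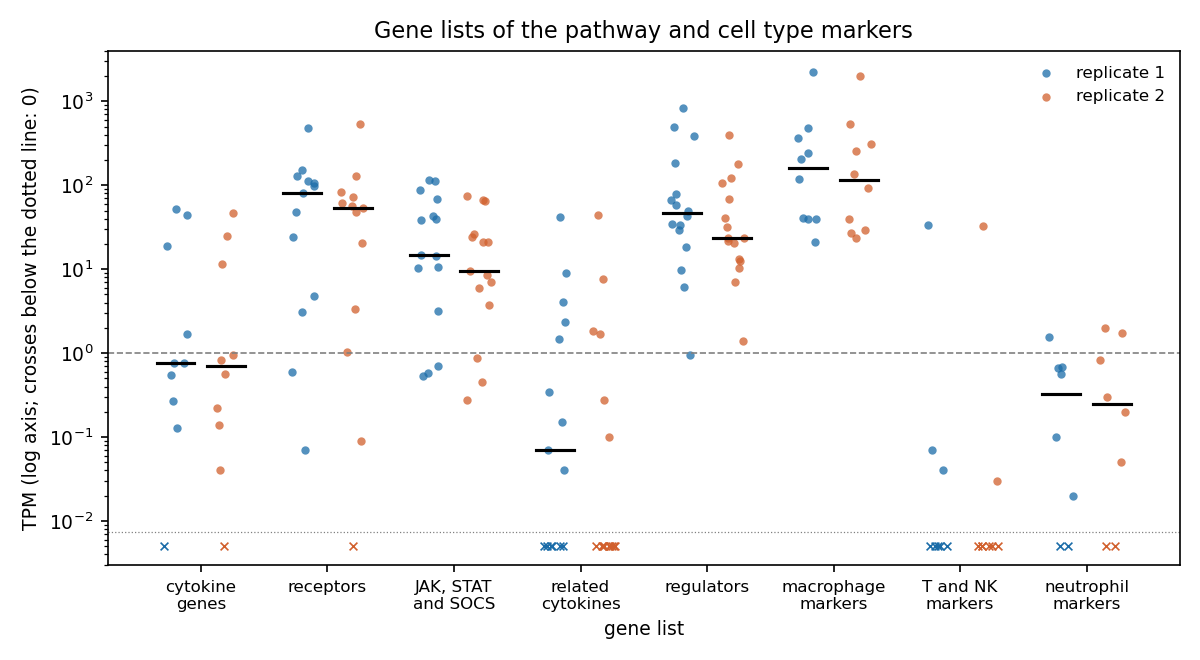
TPM on a log axis of every gene in the cytokine list, the 4 pathway lists and 3 marker lists, in replicate 1 (blue) and replicate 2 (orange); black bars are medians and crosses are genes at 0. The cytokine medians of 0.76 and 0.695 TPM lie below the dashed 1 TPM line, and the receptor medians of 80.8 and 53.2 TPM lie above it.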

How the data were processed

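Ribosome-depleted total RNA of the nucleoplasm was sequenced in 2 libraries of 1 group. Per the file headers, the authors deposited expected counts and TPM for genes and transcripts under column names of RSEM. A further deposited table per library holds estimated counts and TPM of transcripts under column names of kallisto. The deposited transcript tables also give the percent of a gene's TPM on each transcript, and the authors' interval bounds for TPM, treated as scores, were not used. Per the submitters' notes the assembly is mm10 and the annotation GENCODE M21. The tool versions, filters and strand setting were not given in the sources used here. Posterior-mean TPM was used only as an alternative.

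Members were matched by symbol, and transcripts of the kallisto-type table (the second quantification) were summed to genes. Another 26345 entries that name no annotated gene held 0.823% and 0.207% of counts and were left out. Expected counts were rounded and TMM-scaled (edgeR 4.0.16, R 4.3.3). Ratios between libraries used a prior count of 0.5, a mean scaled count of at least 10 and Clopper-Pearson exact 95% intervals. No molecular identifiers were counted, so these intervals and the limits for a count of 0 hold counting error alone. The ratio of the quantifications was centred on the median of genes reaching 1 TPM in both tables, and a gene was compared where either table reached 1 TPM in each library. Calls were differences over 2-fold. With 1 group no test was possible. The calculation of ratios was checked on simulated counts. Software was Python 3.11.15 with pandas 2.3.3, numpy 2.4.6, scipy 1.17.1 and matplotlib 3.10.9, and DESeq2 1.42.0 size factors served as an alternative. Members and gene lists were chosen with earlier results of these data known. Named are all 10 members, all receptors, the lowest and 3 highest of each other pathway list, and genes overlapping a member, except 1 gene that is not reported here.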

Additional observations from a re-analysis of the deposited data

How the results depend on the processing

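The number of members that reached 1 TPM in each library rose from 3 to 5 with the second quantification, where Il27 and Il23a were added, and to 6 at a minimum of 0.5 TPM. It was 3 to 4 without either replicate. The 4 related cytokine genes became 2 at a minimum of 2 TPM. The 2 members past 2-fold between the replicates became 1 by the ratio of TPM, where Il6 was at log2 0.59, 4 with no count minimum and 0 at a mean scaled count of 50. The log2 ratio of Il10 reversed to -0.17 by the ratio of TPM. The cause of these changes was not tested, except that other minimums admit more or fewer genes. Without centring, 0 members were past 2-fold between the quantifications in both libraries, against 1, since the shift of replicate 1 was then not removed. The other 39 alternative values of the counts were within 1.5 times. Of 20 transcript shares under alternatives, 5 moved by more than the spread (SD) between the libraries. The shares without either replicate are among the 20 but lie within that spread by construction. All 5 came from the share of expected counts or the second quantification. Chosen after seeing the data, the share of Csf1 TPM with the long exon 6 included Csf1-206. It was 74.6% as a mean, 83.6% by expected counts and 48.8% by the second quantification. Of 50 member levels under alternatives, 15 moved by more than 1 SD. The levels without either replicate are among the 50 but could not move, because with n = 2 each value lies within 1 SD of the mean. All 15 thus came from the other alternatives. No paired analysis was possible because there is 1 group. Depth limits Il12a, Csf2 and Csf3, at 4 counts or fewer in the first quantification.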
